A study of Mus musculus with 4 samples.

Results

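The genes described here are the kinesins, taken as the protein-coding mouse genes whose symbol is Kif followed by a number and an optional letter, or Kifc followed by a digit. The deposited gene identifiers were matched to GENCODE vM21, and 41 of 55487 identifiers (21974 of them protein-coding) met this rule. By their known roles, 13 were placed in a spindle class, 17 in a transport class and 11 in neither. The classes were set with earlier results of these data known. Primary mouse astrocyte cultures of genotype OASIS wild type and of genotype OASIS deficient were compared. The protein OASIS, encoded by Creb3l1, is a transcription factor anchored in the endoplasmic reticulum membrane. Cultures of each genotype were left untreated or were exposed, past confluence, to 1 µg/ml doxorubicin for 1 h and kept for 24 h in fresh medium. Doxorubicin is a topoisomerase II poison that breaks DNA. There was 1 library for each of the 4 combinations. How the deficient cells were made, and how many animals gave each culture, is not given in the sources used here.

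Kinesins are motors that walk along microtubules or take them apart, using ATP. During cell division one set of them builds the spindle, moves chromosomes and completes cytokinesis, and genes of this set are mostly transcribed in the later part of the cell cycle. Another set carries organelles, vesicles and RNA through the cytoplasm of cells whether or not they divide, and astrocytes and neurons depend on it to supply their long processes.

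Total counts were 17481188 to 22559613 per library. Creb3l1 had 966 and 636 counts in the wild-type untreated and doxorubicin libraries and 260 and 235 in the deficient ones, so the deficient libraries held 31.1% and 42.8% of the wild-type level. Xist, which is transcribed from an inactive X chromosome, had at most 1 count in the untreated libraries and 2547 and 2742 in the doxorubicin libraries, while 4 Y-linked genes (Uty, Kdm5d, Eif2s3y, Ddx3y) ranged from 353 to 1567 counts without doxorubicin and were at 0 with it. The treatment label and the sex of the cells therefore cannot be told apart in any doxorubicin comparison, whereas each genotype comparison sets libraries of the same pattern side by side. The astrocyte markers Gfap, Aqp4 and Slc1a3 were abundant in all 4 libraries, Gfap with 22712 to 113415 counts.

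Values are given in the order wild type untreated, wild type doxorubicin, deficient untreated, deficient doxorubicin. Counts were scaled to CPM, counts relative to library size, for comparisons of 1 gene between libraries, and the authors' TPM values, which also allow for transcript length, were used for comparisons between genes. Of the 41 kinesins, 37 had a mean of at least 1 CPM: 12 of 13 spindle, all 17 transport and 8 of 11 other members. Kif2b, a mitotic microtubule depolymerase, and Kif12 had no count in any library, Kif19a had 0, 0, 3 and 6 counts, and Kif28 had 0, 0, 13 and 0.

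Transport motors made up most of the kinesin RNA in every library. Kif5b, the ubiquitous heavy chain of conventional kinesin, was the highest kinesin in all 4 libraries, at 193, 186, 144 and 132 TPM. Kif1a, a vesicle motor known for carrying synaptic vesicle precursors, came next at 97.6, 132, 130 and 112 TPM, followed by Kif3a, a motor subunit of the heterotrimeric kinesin that also builds cilia, at 80.3, 73.6, 65.9 and 91.4 TPM. These motors kept the first 3 places in each library, and with 1 library per group neighbours in the order have no replicate spread to be set against. The next place belonged to Kif1b, a carrier of mitochondria and vesicles, in 3 libraries and to the chromosome-arm motor Kif22 in the deficient doxorubicin library, where Kif22 had 55.0 TPM and Kif1b 49.0 TPM.

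The share of kinesin RNA from spindle members was higher in both deficient libraries. Summed TPM of the spindle class was 38.7, 39.0, 171 and 258, and that of the transport class was 560, 552, 480 and 490. Spindle members thus gave 5.99%, 6.30%, 25.2% and 33.2% of all kinesin TPM. Counted in reads instead, their share was 4.19% (95% Clopper-Pearson interval 3.97 to 4.43) in wild type untreated, 5.11% (4.87 to 5.35) in wild type doxorubicin, 21.1% (20.7 to 21.6) in deficient untreated and 27.8% (27.3 to 28.2) in deficient doxorubicin. These intervals cover counting error only. The members outside both classes summed to 48.2, 28.8, 26.4 and 28.3 TPM. Kinesins at 10 TPM or more numbered 13, 9, 13 and 20. In bulk RNA, fewer cells that contain a transcript and less of it per cell cannot be told apart.

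**Figure D1:**
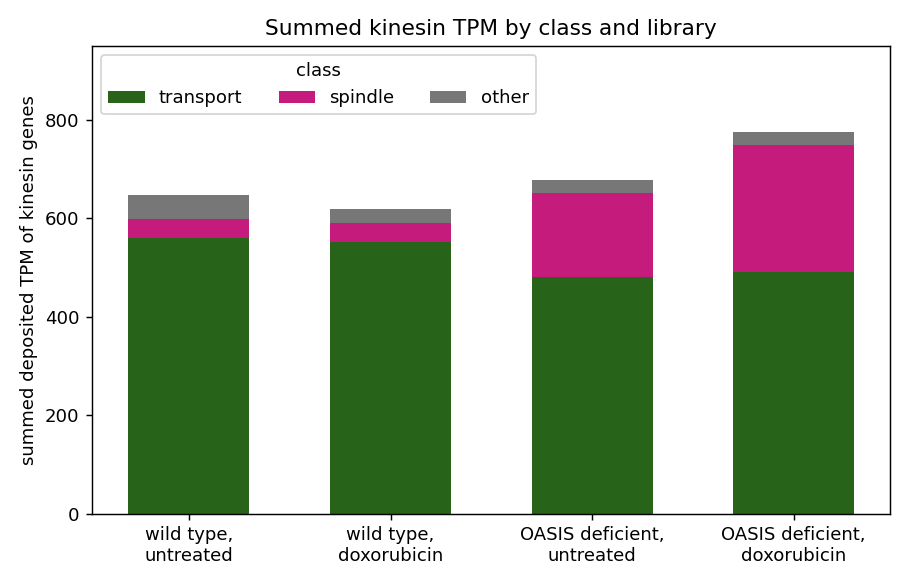
Summed TPM of the spindle, transport and other kinesins in each of the 4 libraries, 1 bar segment per class and 1 bar per library. The spindle segment grows from about 39 TPM in both wild-type libraries to 171 and 258 TPM in the deficient ones, while the transport segment runs from 480 to 560 TPM.

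The promoters of the spindle class often held letters that the choice of members did not use. In late cell cycle genes a cell cycle homology region (CHR, searched as TTTGAA on both strands) lies near the start, often downstream of CCAAT boxes, and E2F sites (TTCCCGC or TTTGGCGC) and the core of the cyclic AMP response element (TGACGT), a letter string that CREB-type factors can bind, were searched as well. RefSeq promoters of GRCm38.p6, running from 250 bases before to 50 after the start, were matched to 32 of the 41 kinesins. The 12 spindle promoters are not those of the 12 measured members, since Kif2b is included and no promoter was matched for Kif20a. Among transport members, no promoter was matched for Kif5a, Kif5b, Kif13b, Kif21b, Kifc2 and Kifc3. A CHR was present in 10 of 12 spindle promoters (83.3%), 0 of 11 transport promoters and 2 of 9 others, beside 11.7% of 11128 promoters of tested genes. Both a CHR and a CCAAT box were present in 7 spindle promoters (58.3%), 0 transport promoters and 2 others (22.2%), Kif26b and Kif27, beside 4.99%. CCAAT boxes were in 66.7% of spindle and 27.3% of transport promoters beside 38.8%. E2F sites were in 16.7% of spindle promoters beside 9.26%, and CRE cores were in 16.7% of spindle and 18.2% of transport promoters beside 11.7%. These are descriptions of letters in 1 window per gene, which for some genes lies inside the GENCODE gene, and no match is a shown binding site.

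The following stretches end 1 base before the RefSeq start, run 5′ to 3′ on the strand of the gene and hold no exon of GENCODE vM21. Capitals mark every match to the searched letters on either strand. They are shown to set spindle promoters with near-start motifs beside a member of neither class with the same pair and beside transport promoters without it. Kif11 lies at chr19:37376232-37376381 (plus strand), Kif18b at chr11:102925125-102925274 (minus strand), Kif26b at chr1:178528975-178529124 (plus strand), Kif5c at chr2:49619136-49619285 (plus strand) and Kif1c at chr11:70700398-70700547 (plus strand).
Kif11: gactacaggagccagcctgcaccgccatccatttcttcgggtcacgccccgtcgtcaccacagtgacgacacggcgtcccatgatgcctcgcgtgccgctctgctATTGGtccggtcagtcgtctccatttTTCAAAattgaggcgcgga
Kif18b: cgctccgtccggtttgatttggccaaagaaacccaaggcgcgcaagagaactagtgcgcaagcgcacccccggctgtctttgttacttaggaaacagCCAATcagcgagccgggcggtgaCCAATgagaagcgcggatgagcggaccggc
Kif26b: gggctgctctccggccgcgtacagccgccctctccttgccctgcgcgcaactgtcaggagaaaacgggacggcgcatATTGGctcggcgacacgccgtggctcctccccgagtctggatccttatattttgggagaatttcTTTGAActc
Kif5c: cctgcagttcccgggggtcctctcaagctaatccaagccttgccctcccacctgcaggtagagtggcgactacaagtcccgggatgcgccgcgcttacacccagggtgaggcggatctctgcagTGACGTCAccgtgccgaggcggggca
Kif1c: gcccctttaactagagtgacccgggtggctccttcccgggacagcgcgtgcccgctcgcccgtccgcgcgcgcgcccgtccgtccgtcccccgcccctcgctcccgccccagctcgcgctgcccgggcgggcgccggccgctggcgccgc

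In Kif11 the CCAAT box, read as ATTGG, starts at -45 and the CHR, read as TTCAAA, starts at -19. Kif22 had the same order, with a CCAAT box at -54 and a CHR at -17, and Kif15 had a CHR at -19 directly after an E2F site at -27, with a CRE core at -86. Kif18b had CCAAT boxes at -53 and -30, and its CHR lay after the start, at 4. Kif26b, a member of neither class, carried the pair as well, with a CCAAT box at -73 and a CHR at -9. The Kif5c stretch held overlapping CRE cores at -26 and -24, and the Kif1c stretch held none of the searched letters. The spindle promoters without a CHR were those of Kif18a, which had an E2F site at -10, and Kif2b, which had no count.

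**Figure D2:**
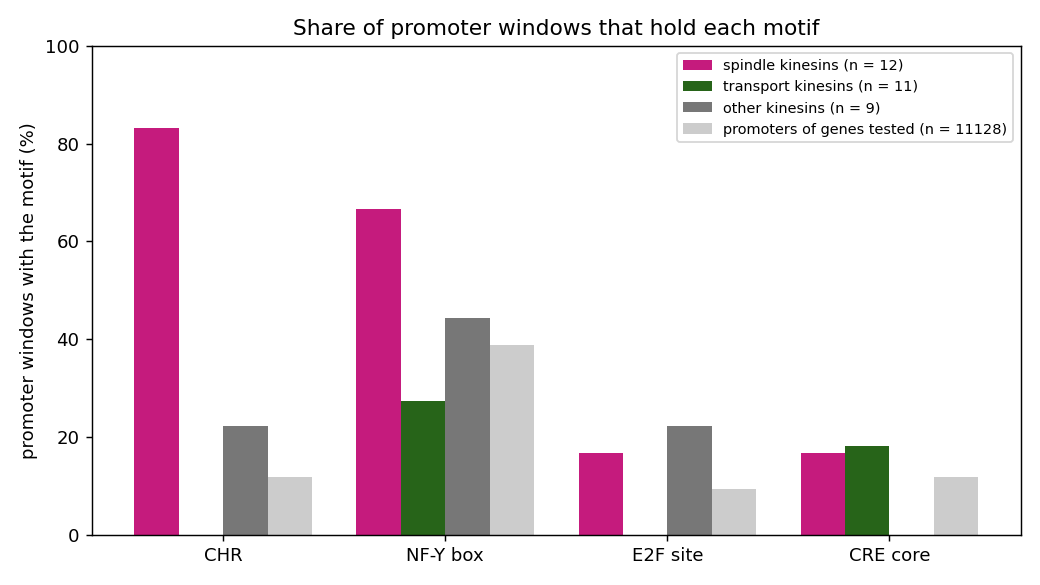
Share of promoters that hold each searched motif, in percent, for spindle, transport and other kinesins and for all tested genes. The CHR is in 83.3% of spindle and 0% of transport promoters, beside 11.7% of those of tested genes.

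Spindle kinesins were higher in the deficient than in the wild-type library under both treatments. Among untreated libraries, 11 of 12 measured members were higher by size, meaning a log2 ratio of at least 1 after 1 CPM was added to each value, and none was lower. Of all 15596 genes tested, 9.79% were higher by this rule and 10.2% lower. The median log2 ratio of the class was 2.97 against -0.03 over all genes. Between the doxorubicin libraries, 10 of 12 were higher and none lower, beside 10.7% and 9.55% of all genes, with a class median of 3.56 against 0.02. The 2 comparisons share no library, and 10 spindle kinesins were higher by size in both: Kif11, Kif14, Kif15, Kif18a, Kif20a, Kif20b, Kif22, Kif23, Kif2c and Kif4. The share of all genes higher by size in both was not counted. The pseudocount understates the spindle ratios, and with zeros set to a floor of 3 counts and no pseudocount the medians were 3.49 and 4.38.

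Genotype was tested over all 4 libraries with treatment as a second term, with the quasi-likelihood test of edgeR and p-values adjusted by Benjamini-Hochberg over 15596 genes. In this additive test 11 of 12 spindle kinesins rose and none fell. Among all genes 12.6% rose and 10.6% fell. Kif2a, a depolymerase of neurons and spindles that was placed in neither class, did not pass (log2 -0.08, adjusted p = 0.9). With 1 library per combination 1 residual degree of freedom remained, and each gene's spread was moderated with 14.3 prior degrees of freedom from the other genes. A fit to 3 libraries leaves no residual with treatment as a term, so leaving out a library also took treatment out of the model. Without treatment alone 10 of the 11 calls held, with Kif18b lost (log2 1.17, adjusted p = 0.11), and without both treatment and the deficient doxorubicin library 8 held, with Kif18a (log2 2.27, adjusted p = 0.131) and Kif2c (adjusted p = 0.0891) lost as well.

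The motors that set up the 2 poles of the spindle behaved unequally. Kif11, a tetramer that slides antiparallel microtubules and pushes the poles apart, and whose promoter was printed with both motifs, had 53, 52, 701 and 1041 counts. The wild-type libraries were nearly alike and both deficient libraries lay far above them. The ratio of deficient to wild type was 15.3 (95% interval of counting error 11.6 to 20.6) untreated and 23.2 (17.5 to 31.2) with doxorubicin, and the additive log2 change was 4.23 (SE 0.320, adjusted p = 1.1e-07). Kif15, which can stand in for Kif11 in keeping the spindle bipolar, had 4, 37, 275 and 485 counts. It was the spindle member with the lowest level in the wild-type untreated library after Kif14 and Kif2b, at 0.232 TPM, and its additive log2 change was 4.78 (SE 0.576, adjusted p = 1.81e-05). Kifc1, a minus-end-directed motor that focuses the poles, had 538, 656, 259 and 568 counts and was the exception in its class. Its ratio was 0.557 (0.478 to 0.647) untreated and 1.00 (0.894 to 1.12) with doxorubicin, and it did not pass the additive test (log2 -0.41, SE 0.285, adjusted p = 0.337). Reads of Kifc1 are shared with a near-identical copy, Kifc5b, and the sum of both gave 0.532 (0.461 to 0.613) and 0.944 (0.849 to 1.05).

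The microtubule depolymerases and length regulators had the largest differences in the spindle class between the wild-type libraries themselves, as log2 ratios of CPM plus 1. Kif2c, which removes faulty attachments at kinetochores, had 91, 0, 763 and 1021 counts. It was missing from the wild-type doxorubicin library and present in the other three. Deficient cells had 9.70 (7.80 to 12.2) times the wild-type level untreated and at least 394 times with doxorubicin, taking 3 counts as the limit for a count of 0. Kif2c passed the additive test (adjusted p = 0.000232), which DESeq2 did not call (adjusted p = 0.0777). Kif18a, which dampens the movements of aligned chromosomes, had 115, 33, 298 and 668 counts, for ratios of 3.0 (2.41 to 3.75) and 23.4 (16.5 to 34.3) and an additive log2 change of 2.99 (SE 0.575, adjusted p = 0.0013). Its relative Kif18b, which shortens astral microtubules, had 146, 456, 465 and 680 counts, or 7.33, 19.9, 27.0 and 34.4 CPM, so the wild-type doxorubicin library stood between wild type untreated and the deficient libraries. The Kif18b ratio was 3.69 (3.05 to 4.47) untreated and 1.73 (1.53 to 1.95) with doxorubicin, the additive log2 change was 1.32 (SE 0.321, adjusted p = 0.00706), and a model without treatment gave an adjusted p of 0.110.

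The chromokinesins, which sit on chromosome arms, rose together. Kif22 had 84, 93, 944 and 1498 counts, 13.0 (10.4 to 16.5) times wild type untreated and 18.7 (15.1 to 23.3) times with doxorubicin. Its additive log2 change was 3.96 (SE 0.272, adjusted p = 3.71e-08). Kif4, an X-linked motor that also organizes the central spindle with Prc1, had 19, 19, 408 and 900 counts and an additive log2 change of 5.21 (SE 0.424, adjusted p = 2.48e-07). Kif4 shares 15.1% of its exonic bases with Pdzd11 on the opposite strand, and the library kit does not mark strand.

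The motors of the central spindle and midbody rose as well. Kif20a, which carries the chromosomal passenger complex to the midzone, had 67, 41, 1179 and 1850 counts, for ratios of 20.4 (15.9 to 26.5) and 52.2 (38.4 to 73.0). Its additive log2 change of 4.99 (SE 0.322) had the smallest adjusted p of the kinesins, 1.9e-08, and 29.3% of its exonic bases overlap Cdc23 on the opposite strand. Kif23, the motor subunit of centralspindlin, had 89, 183, 688 and 1158 counts and an additive log2 change of 3.01 (SE 0.276, adjusted p = 9.63e-07). Kif20b, which acts late in cytokinesis, had 77, 129, 447 and 646 counts and an additive log2 change of 2.64 (SE 0.342, adjusted p = 3.8e-05). Kif14, which recruits citron kinase to the midbody, had 1, 0, 83 and 113 counts. The untreated ratio of Kif14 was 96.0 with a wide interval (16.8 to 3838), the doxorubicin ratio was at least 43.6, and it passed the additive test (adjusted p = 0.000758). For all 4 motors each deficient library exceeded both wild-type libraries.

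**Figure D3:**
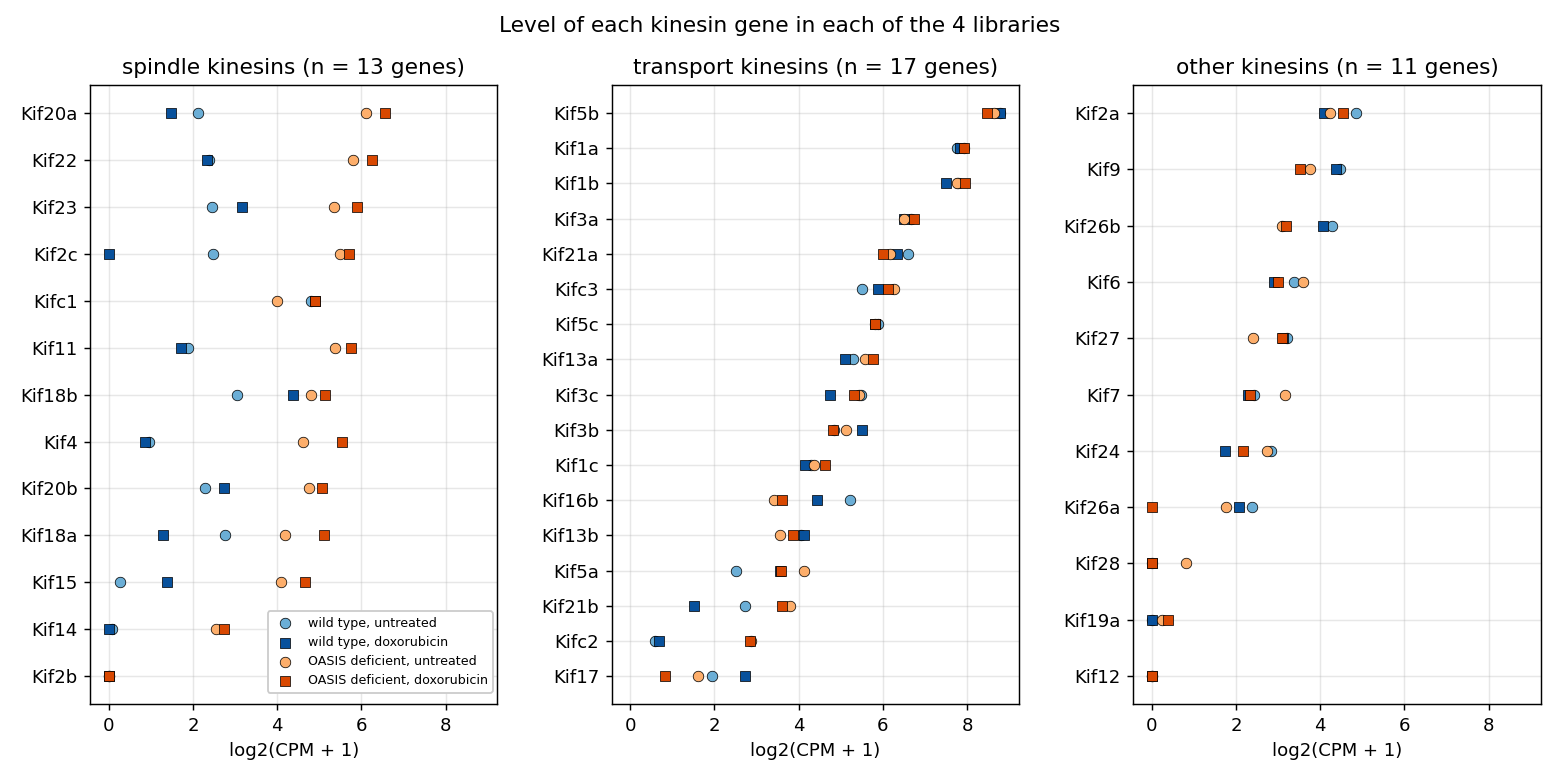
Level of each kinesin in the 4 libraries as log2 of CPM plus 1, with 1 panel per class, 1 row per gene and 1 point per library. For the spindle members other than Kifc1 and the undetected Kif2b the deficient libraries lie above the wild-type libraries, and for most transport members the 4 points lie close together.

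Genes that work with the spindle motors also differed between genotypes. Of 22 spindle partner genes, 20 rose and 2 fell in the additive genotype test, beside 12.6% and 10.6% of all genes, with a median log2 change of 3.58 against -0.01 over all genes. This list was chosen with earlier results of these data known. Aurkb, the kinase of the passenger complex that Kif20a carries, had 0, 0, 1139 and 2526 counts, at least 439 times wild type untreated and at least 975 times with doxorubicin. Aurka, a spindle pole kinase, had 8, 86, 792 and 1529 counts and an additive log2 change of 5.18 (adjusted p = 2.48e-07). The kinetochore subunits Nuf2 (log2 5.00, adjusted p = 4.9e-09) and Ndc80 (log2 4.90, adjusted p = 8.17e-05) also rose. The 2 that fell were Numa1, which tethers dynein at the spindle poles (log2 -0.73, adjusted p = 0.00152), and Ckap2 (log2 -0.51, adjusted p = 0.0274), both named after their values were seen. The proliferation marker Mki67 had 78, 276, 1738 and 2869 counts, and the gene of the cell cycle inhibitor p21, Cdkn1a, had 25804, 34221, 3204 and 3926. Their part in the kinesin values was not tested.

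Transport kinesins as a class lay near the median of all genes. Among untreated libraries 3 of 17 were higher by size (Kif5a, Kif21b and Kifc2) and 1 lower (Kif16b), beside 9.79% and 10.2% of all genes. The median log2 ratio of the class was -0.04. Between doxorubicin libraries 2 were higher (Kif21b and Kifc2) and 1 lower (Kif17), beside 10.7% and 9.55% of all genes. The class median there was 0.11, which was -0.10 on the TPM scale. In the additive genotype test 2 rose, Kif21b and Kifc2, and Kif16b fell. These are 3 of 17 members beside 23.2% of all genes called in either direction. With treatment and either deficient library left out none of the 3 was called, with log2 changes of 3.45 and 3.49 for Kifc2, -1.34 and -1.56 for Kif16b, and 1.59 and 1.78 for Kif21b.

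The abundant transport motors had similar levels in the 4 libraries. Kif5b had 442, 440, 395 and 355 CPM and an additive log2 difference of -0.24 (SE 0.105, adjusted p = 0.123). Kif1a had 217, 225, 243 and 243 CPM, with a log2 difference of 0.14 (SE 0.116, adjusted p = 0.45). Kif1b had 221, 179, 215 and 247 CPM (log2 0.21, adjusted p = 0.296). These 3 differences were smaller in size than those of the 11 spindle motors that rose, though a p above the threshold does not show equal levels.

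The heterotrimeric kinesins, which serve cilia and vesicle transport, likewise passed no test. Kif3a had 2012, 2050, 1530 and 2093 counts (log2 0.03, adjusted p = 0.924). Its partner Kif3b had 553, 1023, 588 and 540 counts, the wild-type doxorubicin library standing above the rest (log2 -0.21, adjusted p = 0.64). Kif3c, the alternative partner, had 871, 591, 726 and 767 counts (log2 0.27, adjusted p = 0.472), and 35.3% of its exonic bases overlap an antisense gene. Among 13 genes of intraflagellar transport, the cargo trains that these motors pull, 1 rose and 2 fell, a share near the 23.2% of all genes called. Ift27 had 3424, 4552, 942 and 1335 counts and fell by 1.60 on the log2 scale (adjusted p = 5.95e-07), Ift52 fell by 0.48 (adjusted p = 0.0446) and Ift46 rose by 0.72 (adjusted p = 0.0366). Ift140 did not pass (log2 0.54, adjusted p = 0.228).

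The conventional kinesin heavy chains of neurons differed from each other. Kif5a, which is enriched in neurons, had 94, 246, 283 and 215 counts. In counts only the wild-type untreated library was low. The genotype ratio of Kif5a was 3.48 (2.75 to 4.45) untreated and 1.01 (0.839 to 1.22) with doxorubicin, and the additive test did not call it (adjusted p = 0.202). In TPM its libraries lay closer together, at 1.79, 2.13, 2.99 and 2.01, so the size of the untreated difference depends on the scale. Kif5c had 1153, 1266, 951 and 1085 counts (log2 -0.04, adjusted p = 0.912). Of 21 light chains and cargo adaptors, a list not limited to partners of conventional kinesin, 5 rose and none fell, beside 12.6% and 10.6% of all genes. They were Klc3 (log2 2.32, adjusted p = 0.00269), Mapk8ip2 (1.58, 0.0123), Fez1 (1.08, 5.48e-06) and, named after their values were seen, Fyco1 (0.72, 0.0443) and Arl8a (0.51, 0.00747). Hap1 did not pass (log2 -0.79, adjusted p = 0.0752). Fez1, an adaptor for axonal cargo, had 3235, 3646, 6066 and 6467 counts.

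Kif21b and Kifc2 were the transport members higher by size in both genotype comparisons, a count with no share of all genes beside it. Kifc2, a minus-end-directed motor first described in neurons, had 10, 14, 109 and 122 counts, 12.6 (6.60 to 27.0) times wild type untreated and 10.1 (5.79 to 19.0) times with doxorubicin (additive log2 3.48, SE 0.847, adjusted p = 0.00714). Kif21b, a neuronal motor that also restrains microtubule growth, had 111, 43, 220 and 222 counts, for ratios of 2.29 (1.82 to 2.91) and 5.98 (4.30 to 8.49). Its additive log2 change was 1.87 (SE 0.522, adjusted p = 0.0164), and the call was lost without treatment in the model (adjusted p = 0.0762). Its close relative Kif21a had 1898, 1841, 1231 and 1245 counts and did not pass (log2 -0.38, adjusted p = 0.0991). In TPM both risers were low, Kifc2 at 0.225 to 2.54 and Kif21b at 0.253 to 1.67.

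Markers of other cell types differed between genotypes. The counts in this test stand beside 12.6% of all genes risen and 10.6% fallen. Of 8 neuron markers 7 were measured and 4 rose, and their summed CPM was 227, 201, 407 and 433, with 3, 2, 0 and 1 of the 8 at 0. Stmn2 had 1743, 2194, 3109 and 4261 counts, Map2 1919, 1758, 1963 and 2292, and Tubb3 782, 522, 1766 and 1674. Map2 did not pass (log2 0.42, adjusted p = 0.059). Named after its values were seen, Nefl went the other way, with 62, 34, 12 and 0 counts, and did not pass (adjusted p = 0.0912). Of 10 oligodendrocyte lineage markers 9 rose, with summed CPM of 305, 220, 809 and 829 and with 1, 3, 0 and 0 at 0. Olig1 had 4100, 3461, 7738 and 9537 counts, Olig2 626, 543, 1305 and 1853, and Mbp 429, 318, 1879 and 2119. Of 8 astrocyte markers 6 rose, with summed CPM of 3516, 3306, 10440 and 9187. Microglia markers summed to 460, 350, 441 and 293 CPM, with 1 of 8 risen and 2 fallen. Fibroblast and meningeal markers summed to 361, 189, 308 and 272, with none of the 5 measured called. The part of these markers in the kinesin values was not tested.

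Kif16b, which moves early endosomes toward microtubule plus ends, was the transport member that fell. It had 724, 471, 166 and 222 counts, both deficient libraries lying below both wild-type ones. The ratios were 0.265 (0.223 to 0.315) untreated and 0.546 (0.463 to 0.641) with doxorubicin, and the additive log2 change of Kif16b was -1.39 (SE 0.336, adjusted p = 0.00676). Kif17, a motor of dendrites and cilia, had 56, 128, 35 and 15 counts and did not pass (adjusted p = 0.25). Among the remaining transport members, Kif13a and Kif13b, carriers of endosomal and signalling cargo, had log2 differences of 0.48 (adjusted p = 0.122) and -0.40 (adjusted p = 0.46), and Kif1c had 0.29 (adjusted p = 0.551). Kifc3, a minus-end-directed motor, had 889, 1334, 1305 and 1365 counts (log2 0.50, SE 0.189, adjusted p = 0.0679), and limma-voom called it (adjusted p = 0.0387).

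The opposing motor was also examined. Of 20 dynein and dynactin genes, whose complex drives transport toward microtubule minus ends, 4 rose and 2 fell, beside 12.6% and 10.6% of all genes, with a median log2 change of 0.17. Nde1, a dynein regulator, rose by 0.77 (adjusted p = 0.000954). Named after their values were seen, Dctn6 rose by 0.65 (0.0234), Dynll1 by 0.46 (0.00478) and Dctn2 by 0.40 (0.0285). Ndel1, the relative of Nde1, fell by 0.68 (adjusted p = 0.00414) and the light intermediate chain Dync1li1 fell by 0.67 (0.0062). Bicd1, a cargo adaptor of dynein, did not pass (log2 0.85, adjusted p = 0.0644).

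**Figure D4:**
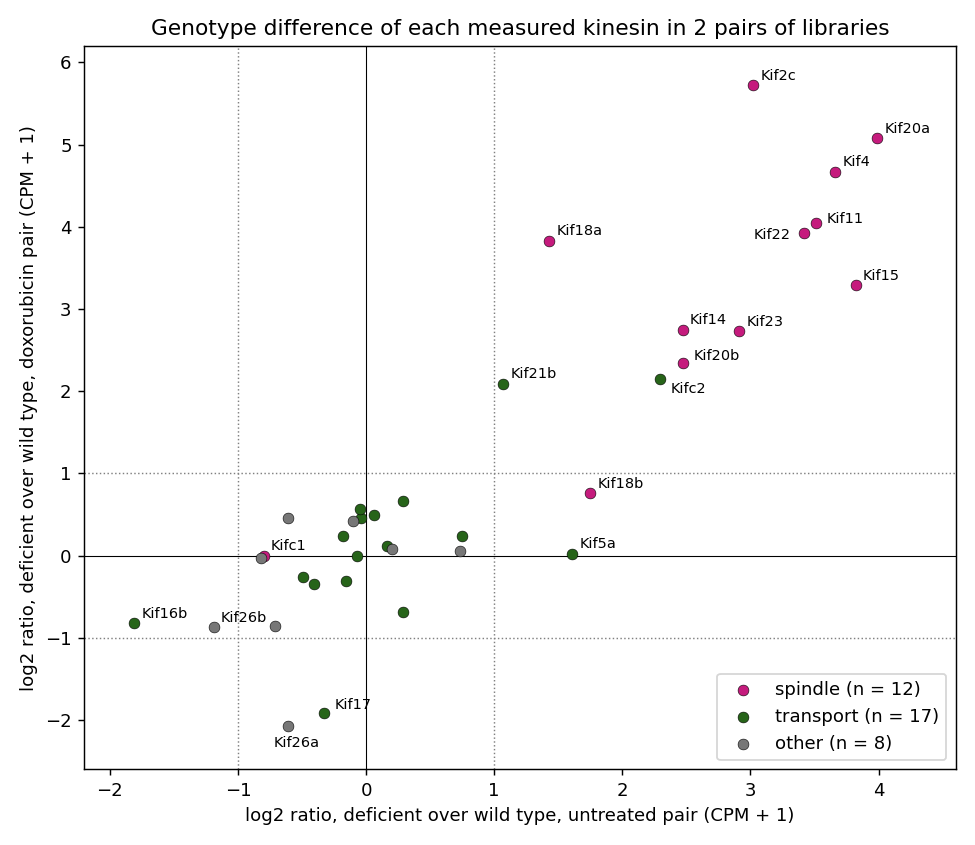
Log2 ratio of deficient over wild type for each of the 37 measured kinesins, in the untreated pair (horizontal axis) and the doxorubicin pair (vertical axis), with dotted lines at a log2 ratio of 1 and -1. The 10 spindle members higher by size in both pairs lie toward the upper right, as do Kif21b and Kifc2 of the transport class, and most transport members lie near the origin.

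Among the kinesins of neither class, 1 of 8 measured passed the genotype test, beside 23.2% of all genes. By size, Kif26b was lower among untreated libraries and Kif26a between doxorubicin libraries. Kif26b, a family member that binds microtubules without walking on them, had 367, 358, 129 and 160 counts. Its ratios were 0.407 (0.330 to 0.498) and 0.517 (0.427 to 0.625), and the additive log2 change of Kif26b was -1.12 (SE 0.377, adjusted p = 0.0418), a call that DESeq2 did not make (adjusted p = 0.0985). Its promoter was the one outside the spindle class shown with a CHR and a CCAAT box. Its relative Kif26a had 83, 73, 41 and 0 counts (adjusted p = 0.157). Kif9, a motor of motile cilia, had 418, 455, 214 and 208 counts, with both deficient libraries the lower ones, and did not pass (adjusted p = 0.0823). Ependymal markers, which belong to cells with motile cilia, summed to 118, 154, 120 and 119 CPM, and 1 of 7 was called, Ccdc153, with 228, 472, 55 and 54 counts. Foxj1 had 1530, 2335, 1160 and 1382 counts and Rsph1 had 225, 483, 509 and 500. Neither passed (log2 -0.37, adjusted p = 0.125, and log2 0.82, adjusted p = 0.081). Of the 7 markers, 5 had an additive log2 change above 0 and 2 below, with a median of 0.73. Kif2a, a depolymerase of neurons and spindles, had 555, 367, 308 and 443 counts, Kif7, a regulator of Hedgehog signalling at the cilium, 87, 89, 136 and 80, and Kif24, a centriolar depolymerase, 123, 54, 98 and 69. Kif27 had 166, 176, 74 and 148 counts and Kif6 had 188, 149, 189 and 137.

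The doxorubicin libraries differed little from the untreated ones within the deficient genotype. No spindle or transport member met the rule of size there, beside 1.58% of all genes higher and 1.93% lower, and Kif26a was the only kinesin called, at least 15.7-fold lower. All 12 measured spindle kinesins had a log2 ratio above 0, from 0.21 to 0.93 with a median of 0.45, against a median of 0.03 over all genes. Kif18a (log2 0.93), Kif4 (0.91) and Kifc1 (0.89) were at the upper end of that range.

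Within wild type the spindle motors went different ways. By size, 2 of 12 were higher with doxorubicin and 2 lower, beside 4.08% and 5.45% of all genes, and the class median was -0.06, with 5 members above 0 and 7 below. Kif18b (log2 1.33) and Kif15 (1.12) were the higher ones. Kif2c was at least 34.9-fold lower and Kif18a was 0.250 times the untreated level (95% interval of counting error 0.164 to 0.370). Of the 17 transport members, Kif5a was higher (log2 1.04) and Kif21b lower (-1.19), with a class median of -0.07. Kif24 was lower as well (log2 -1.10).

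The additive doxorubicin test called no kinesin in either direction, beside 0.0192% of all genes higher and 0.141% lower. Without adjustment 3 of 37 had a p under 0.05 in this test, beside 864 of the 15596 genes tested. The 3 were the spindle members Kif15 (log2 1.39, adjusted p = 0.774), Kif18b (0.88, adjusted p = 0.75) and Kif23 (0.68, adjusted p = 0.774). DESeq2 and limma-voom also called none. For the difference between the doxorubicin responses, deficient minus wild type, 4 spindle kinesins (Kif2c, Kif18a, Kif20a and Kif4) were at least 1 log2 unit higher and none lower, beside 7.66% and 6.05% of all genes. Kif4 (1.01) and Kif20a (1.09) lay just past this limit and Kif18b (-0.99) just short of it. Of the transport members 1 was higher and 2 lower, and of the other members 1 was higher and 1 lower. The spindle class median was 0.51 against 0.02 over all genes. The interaction of genotype and treatment left no residual degree of freedom and was not tested.

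**Figure D5:**
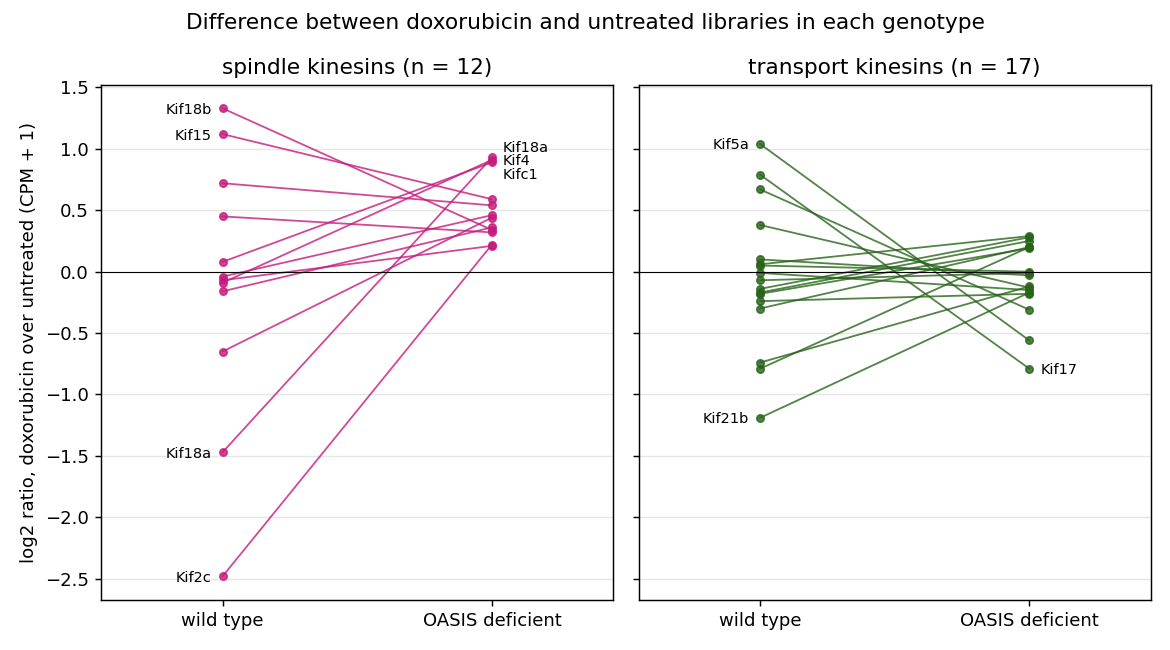
Log2 ratio of doxorubicin over untreated for each measured spindle and transport kinesin, in wild type and in deficient cells, with a line joining the values of 1 gene. Spindle members spread from -2.48 to 1.33 in wild type and from 0.21 to 0.93 in deficient cells.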

How the data were processed

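RNA was sequenced from 4 cultures, 1 library per genotype and treatment, using a SMART-Seq v4 kit (per the labels' protocols), whose reads carry no strand. Per the file headers, the authors gave every gene an estimated count and a TPM value. The submitters' processing notes list DRAGEN and GRCm38. The software version, annotation release and read filters were not given in the sources used here. Deposited estimated counts are not normalized and were rounded to whole numbers. The deposited TPM values were used for levels between genes and as an alternative scale.

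Gene identifiers without version were matched to GENCODE vM21 (55227 of 55487). Counts were scaled to CPM with TMM factors in edgeR 4.0.16 (R 4.3.3), and 15596 genes with a mean of at least 1 CPM were kept. A pseudocount of 1 CPM preceded each log2 ratio, and a ratio of at least 1 or at most -1 counted as higher or lower by size, with no p-value. Ratios have exact conditional binomial 95% intervals. A count of 0 was set at 3 counts per library (0.131 to 0.174 CPM) for lower bounds. These bounds leave out the counting error of the other library, so the exact intervals reach lower. Additive models of genotype and treatment were tested with edgeR's quasi-likelihood test, adjusted p at most 0.05 over all genes tested (common dispersion 0.0863, 14.3 prior and 1 residual degrees of freedom). Reads lack molecular identifiers, so intervals cover counting error only. Nothing in the labels says which animals gave the cultures. On simulated counts of 15596 genes the genotype test recovered 6 of 100 genes changed 2-fold and 72 of 100 changed 4-fold, with 2 false calls, and the doxorubicin test recovered 2 and 69 of 100, with 4 false calls. The simulation gave every gene the common dispersion, changed 100 genes at each size and added no effect of the other factor. The data are less simple, so recovery and false calls in them may differ.

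Every kinesin could be named, along with up to 4 genes of each of 4 partner lists (spindle partners, light chains and adaptors, dynein and dynactin, intraflagellar transport) and up to 3 of each of 6 cell type lists, chosen by size of the genotype change or by level. Further list genes are said to be named after their values were seen. The members, classes and lists were chosen with earlier results of these data known. Alternatives were DESeq2 1.42.0, limma-voom (limma 3.58.1), other scalings, pseudocounts and minimums, TPM, a model without the other factor, and leaving out each library together with the treatment term. Protein sequences were not analysed here.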

Additional observations from a re-analysis of the deposited data

Results flagged for a closer look

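For 11 of the 37 measured kinesins the doxorubicin library lay above the untreated one in one genotype and below it in the other, with both counting intervals clear of no difference. That is 29.7% of them, and 2723 of 15596 tested genes (17.5%) met the same rule. The difference between the genotypes was not tested, since each value compares single libraries, and the treatment label cannot be told apart from the sex of the cells. Of the 11, 3 were spindle members, 7 transport members and 1 neither, and 7 were lower in wild type and higher in deficient cells. The difference of the log2 ratios, deficient minus wild type, was largest for the depolymerase Kif2c at 2.69 and for Kif18a at 2.40. Kif20a followed at 1.09, Kif2a at 1.07, Kif1b at 0.50, Kif3a at 0.42 and Kif13a at 0.37. The opposite order, higher in wild type and lower in deficient cells, held for Kif5a at -1.59, Kif17 at -1.58, Kif3b at -0.98 and Kifc3 at -0.51. The values of Kif2a and Kif17 rest on 308 to 555 and 15 to 128 counts. In wild type the rise of Kif5a was smaller in TPM, from 1.79 untreated to 2.13 with doxorubicin.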

How the results depend on the processing

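The kinesin counts in each comparison, the class counts in the genotype comparisons and the partner list counts were recomputed under the alternatives, and no called kinesin changed sign. Marker counts, counts shared by both pairs and counts of opposite responses were not. The count of spindle kinesins that rose in the genotype test ran from 8 to 11. For single kinesins, 701 values of the additive tests kept their status, called or not, while 22 lost a call and 7 gained one. The 701 include all values of the doxorubicin test, which had no call to lose. In the comparisons by size, 1156 values moved by less than a margin and 104 by more. The margin was the log2 distance from the middle to the end of the counting interval, or 1 log2 unit where no interval was available. Settings that changed only the minimum mean left these values unmoved by construction. With a pseudocount of 5 CPM, fewer kinesins passed by construction: 1 was lower among untreated libraries, 0 between doxorubicin libraries, 1 higher and 0 lower with doxorubicin in wild type, 0 lower in deficient cells, and the response difference was higher in 2 and lower in 1. Transport members between doxorubicin libraries then numbered 1 higher and 0 lower. A minimum mean of 5 CPM gave the same transport counts, with 0 kinesins lower between doxorubicin libraries, 0 lower with doxorubicin in deficient cells and a lower response difference in 1. With a pseudocount of 0.5 CPM, 2 were lower in deficient cells. DESeq2 size factors gave a lower response difference in 5.

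On the TPM scale 4 kinesins were lower among untreated libraries (transport 2 lower and 1 higher), 1 between doxorubicin libraries, 0 higher with doxorubicin in wild type, 1 higher and 0 lower in deficient cells, and 1 lower in the response difference. That scale moved the median of all genes by -0.20 among untreated libraries, and the cause was not tested. In the genotype test, DESeq2 and the fit with no minimum mean each called 1 kinesin lower, 1 spindle partner lower, and 0 higher and 1 lower of the intraflagellar genes. With no minimum, 2 dynein genes were higher, and limma-voom called 1 adaptor lower. Without treatment in the model, 1 transport kinesin and 3 adaptors were higher, and 1 spindle partner and 1 intraflagellar gene lower.

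Leaving out 1 library also took treatment out of the model, since 3 libraries leave no residual with it, so these fits differ from the full one in both choices. They called 8 to 14 kinesins higher and 0 to 3 lower, transport 0 to 3 higher and 0 to 2 lower, spindle partners 0 to 1 lower, adaptors 1 to 5 higher and 0 to 2 lower, dynein genes 0 to 5 higher and 0 to 2 lower, and intraflagellar genes 0 to 2 higher and 1 to 2 lower. The lone library of a genotype is then assumed to vary like the rest. The kinesin minimum of 8 higher came without the deficient doxorubicin library. In the fits without wild type untreated and without either deficient library Kif16b and Kif26b were not called, with log2 changes of -0.98 to -1.56 and -1.0 to -1.18. No paired analysis was possible because each group holds 1 library and the title numbers follow the treatment. Counts under 100 limit the precision of ratios. Among kinesins called by genotype, Kif2c, Kif4, Kif11, Kif14, Kif15, Kif18a, Kif20a, Kif20b, Kif21b, Kif22, Kif23 and Kifc2 had such counts in wild type.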

Other observations

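The deposited count of a gene divided by its TPM, relative to the library median, follows the transcript length that the authors' estimate used. Among 27 kinesins with at least 50 counts in every library, 5 had deficient and wild-type values that did not overlap by a margin of 10%, which is 18.5%, against 6.4% of 11914 genes. The index was higher in deficient libraries for Kif1b (0.846, 0.868, 1.20 and 1.09), Kif6 (0.696, 0.778, 1.20 and 1.33), Kif22 and Kifc3, and lower for Kif23. The highest value exceeded the lowest by a median factor of 1.27 among kinesins and 1.09 among all genes. Transcript isoforms were not analysed here.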
